A study of Mus musculus with 6 samples.

Results

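The genes described here encode subunits of the mitochondrial oxidative phosphorylation system, as transcribed from the nuclear genome of mouse kidney mesangial cells with and without TGF-β1. They were chosen by a rule on the gene symbol, with earlier results of these data known. Complex I was taken as names beginning with Nduf followed by a, b, c, s or v and a digit. The others were Sdha to Sdhd (complex II) and names beginning with Uqcr (complex III), Cox4 to Cox8 (complex IV) or Atp5 (complex V). The rule found 78 of the 19730 rows of the expression table, with 35 in complex I, 4 in complex II, 8 in complex III, 14 in complex IV and 17 in complex V. No symbol had to be dropped as a pseudogene or related sequence. The name pattern is wider than the structural subunits in a few places. Atp5s and Atp5sl carry the name of the ATP synthase without being structural subunits of it, Atp5l2 is annotated as a pseudogene, and Ndufa4 is now regarded as a subunit of complex IV. The pattern also misses subunits with other names, such as Ndufab1 and Cyc1, which are given further on. Cox4i1 and Cox8b were not analysed here.

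Complexes I and II feed electrons from NADH and succinate to coenzyme Q, complex III passes them to cytochrome c, and complex IV passes them to oxygen. Complexes I, III and IV pump protons across the inner mitochondrial membrane, and complex V, the ATP synthase, uses the returning protons to make ATP. Most subunits are encoded in the nucleus and imported, a few are encoded by mitochondrial DNA, and several subunits of complex IV exist as isoforms made in particular tissues.

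RNA was sequenced from 3 Control and 3 TGF-β1 libraries of primary mouse mesangial cells, which support the capillaries of the glomerulus. TGF-β1 (transforming growth factor beta 1) is a secreted factor known for its part in fibrosis, and it was given at 10 ng/ml for 72 h. All cultures, Control included, grew in a high glucose medium (25.5 mM) with 20% foetal bovine serum and were used at passage 3 to 6. The labels number the libraries 1 to 3 within each group and do not say whether they came from separate cultures or animals, so the p-values measure the spread between these samples, which may be technical. Values are FPKM (fragments divided by the kilobases of the transcript and by the M of mapped fragments, M for mega), which allows levels of different genes to be compared per length.

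The libraries held an estimated 9.98 to 11.1 M fragments each, read from the step between low FPKM values by assuming fragments of 200 nt. The treated libraries carried the known response to TGF-β1. Ctgf, a matrix-associated growth factor gene, was at 48.2 ± 19.4 FPKM in Control and 1154 ± 152 FPKM with TGF-β1 (SD, n = 3 each, limma adjusted p = 9.54e-05). Col1a1, a fibrillar collagen chain, was at 231 ± 6.10 and 953 ± 37.4 FPKM (SD, n = 3, limma adjusted p = 1.72e-05), and the contractile gene Acta2 at 997 ± 89.7 and 3887 ± 348 FPKM (SD, n = 3, limma adjusted p = 8.64e-05). Of the 12 mesangial and pericyte markers found, 8 reached 1 FPKM in some library, among them Pdgfrb, while Itga8, Des, Thy1 and Pdgfra stayed below 1 FPKM in every library and Itga8 was listed at 0 in all 3 TGF-β1 libraries. Their summed level was 2207 to 2602 FPKM in Control and 8570 to 9723 FPKM with TGF-β1. Most of it was Acta2, Tagln and Fn1, with means of 997, 512 and 386 FPKM in Control and 3887, 1756 and 3134 FPKM with TGF-β1. Acta2 is also a response gene given above, so the sum is no separate measure of cell identity. Of the markers, 4 were called higher (Acta2, Tagln, Fn1 and Mcam) and 2 were called lower. Those lower were Pdgfrb (-0.34, limma adjusted p = 0.0396) and Col4a1 (-1.07, limma adjusted p = 0.000193), on the log2(FPKM + 1) scale. Markers of other cells moved with the treatment: 12 epithelial and podocyte markers summed to 265 to 332 FPKM in Control and 34.2 to 39.4 FPKM with TGF-β1. Of these, 6 reached 1 FPKM in some library, and Cdh16, Pax8, Cldn2 and Aqp1 were called lower. They did not all fall: Krt18 had 0.150, 0.301 and 0.386 FPKM in Control and 1.52, 1.81 and 1.38 FPKM with TGF-β1. Krt18 was under the filter and not tested. Of other markers not tested, Slc12a1 was higher and Lrp2 and Nphs1 were lower in every treated library. The 6 macrophage and leukocyte markers summed to 87.0 to 114 FPKM and 9.03 to 11.3 FPKM, with Cd14 and Csf1r called lower and Ptprc listed at 0 in all 3 Control libraries. The 7 endothelial markers summed to 3.27 to 4.72 and 2.83 to 3.54 FPKM, and Cdh5 and Kdr were listed at 0 in all 3 Control libraries. The part of these markers in the results below was not tested, and in bulk RNA fewer cells of a type and less RNA per cell cannot be told apart.

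Subunit genes were high and moved little. Of the 78 genes, 75 had a mean of at least 1 FPKM and were tested, with Control means from 1.99 to 2162 FPKM and a median of 140 FPKM. TGF-β1 raised 8 and lowered 9 of the 75, 22.7%, against 48.1% of all 11898 rows tested (limma on log2(FPKM + 1), adjusted p under 0.05). Of all rows 24.5% were called higher and 23.6% lower, so the share of subunit genes called was below that background in each direction. Over all 6 libraries the fitted change on the log2(FPKM + 1) scale reached 2-fold in none of the 75 tested genes, whereas it did in 1840 of all rows tested (15.5%). Uqcrq, given below, passed 2-fold and was called without TGF-β1 replicate 2. The median change of the subunit genes was -0.0049 on the log2(FPKM + 1) scale, beside -0.017 for all rows, and the median size of the change without its sign was 0.28 beside 0.40. Changes stayed under 0.5 in size for 63 of the 75. Among 2196 other rows at 39.7 to 496 FPKM, the range from the 10th to the 90th percentile of the subunit genes, 53.7% were called and the median change was 0.17.

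The median standard error was 0.14 for subunit genes, 0.13 for all rows and 0.11 for the 2196 rows of like level. For 60 of the 75 the 95% interval of the change lay within ±1 on the log2 scale. Of the 58 genes that were not called, 43 had an interval within ±1 and 23 within ±0.5, and for the remaining 15 the interval reached past a 2-fold change. Groups did not overlap in 30 of the 75 genes (40%), 14 of them higher and 16 lower with TGF-β1, against 59.4% of all rows. The largest fitted values, those of Uqcrq and Uqcr11, belonged to genes that were not called and whose libraries disagreed.

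**Figure D1:**
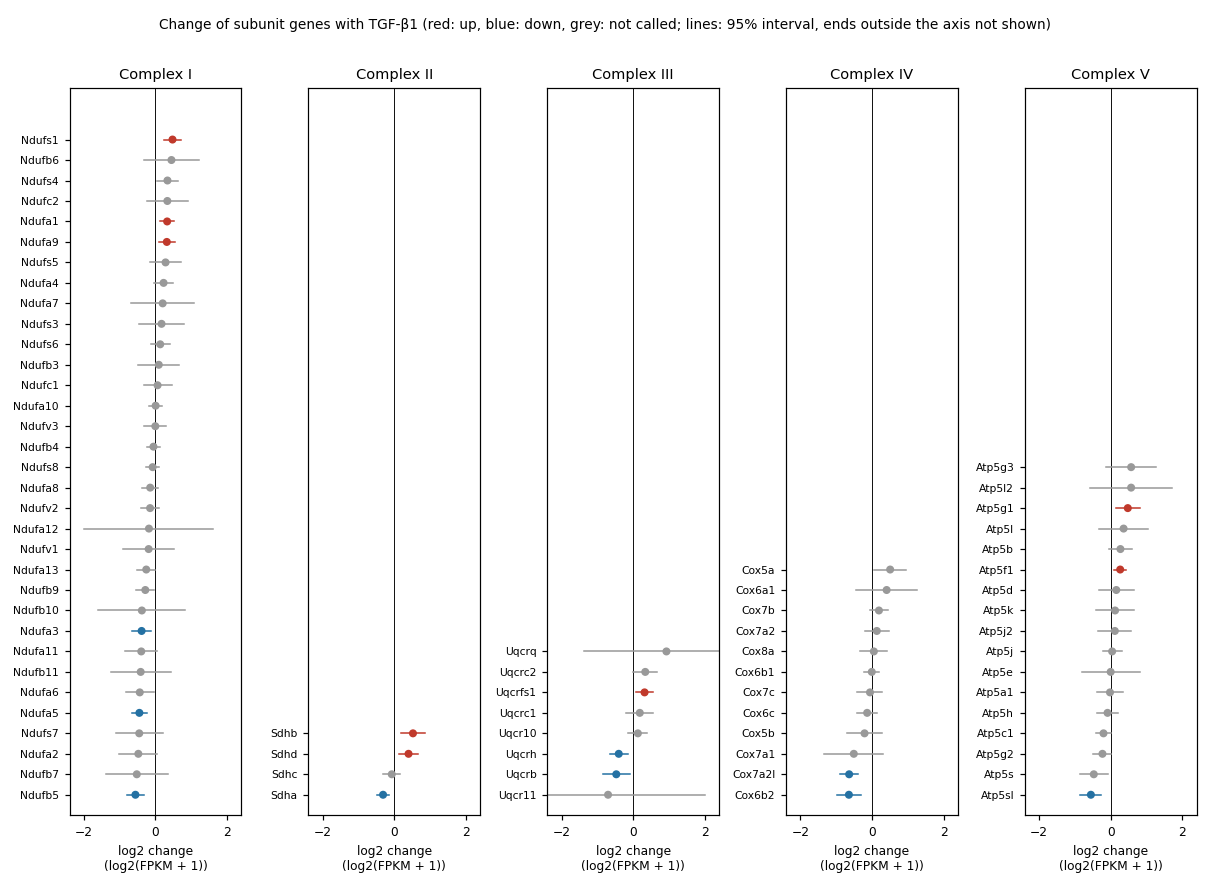
Log2 change with TGF-β1 (horizontal axis, log2(FPKM + 1) scale) of 74 of the 75 tested subunit genes in 1 panel per complex, with points for the fitted change and lines for its 95% interval, cut at the axis ends. Red marks the 8 genes called higher, blue the 9 called lower and grey genes that were not called; most points lie within ±0.5, and the longest intervals belong to Uqcr11, Uqcrq and Ndufa12.

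The calls depended on how the libraries were scaled. When each library was scaled to the sum of its protein-coding rows, the median of all rows shifted to -0.19 and that of the subunit genes to -0.20. In that scaling 1 subunit gene was called higher (Ndufs1) and 21 lower, against 16.9% of all rows called higher and 33.2% lower. Ndufa1, Ndufa9, Sdhb, Sdhd, Uqcrfs1, Atp5g1 and Atp5f1 lost their calls, with limma adjusted p-values from 0.0772 (Sdhb) to 0.514 (Atp5f1). That scaling divides each library by 1 factor, so it moves the changes of all rows by nearly the same amount. Measured relative to the shifted median, the changes of the named genes were therefore nearly as before by construction. Examples are 0.48 for Ndufs1 and -0.64 for Cox7a2l, and this is no check of the calls. The direction of each of the 17 called genes was the same in every refit, and Ndufb5, Ndufa5, Cox6b2 and Cox7a2l were called lower in all 18 refits, while no gene was called higher in all 18. Leaving out TGF-β1 replicate 1 cut the calls to 1 higher and 5 lower, against 19% and 18.3% of all rows. Leaving out TGF-β1 replicate 3 cut them to 2 higher and 6 lower, against 20.3% and 19.3%. Without Control replicate 2 there were 4 higher and 11 lower, against 20.9% and 18.6%, and without TGF-β1 replicate 2 there were 5 higher and 8 lower, against 21.7% and 21.9%.

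Nuclear respiratory factor 1 (NRF1), GABPA of the ETS family (also called NRF2) and YY1 are known regulators of nuclear genes for respiratory subunits, so the promoters of the called genes were searched for short forms of their motifs on both strands. RefSeq promoters (build GRCm38.p6, 250 bases before to 50 after the gene start) matched 61 of the 78 genes. The palindromic core CGCATGCG of the NRF1 motif stood in 8 of the 61 (13.1%) and in 1.91% of all 27025 promoters. The ETS motif CCGGAAGT stood in 5 of the 61 (8.20%) and in 4% of all, and the YY1 motif AAGATGGC in 7 of the 61 (11.5%) and in 2.88% of all. Of the 13 matched promoters of called genes, 3 held a motif, and they belonged to genes that moved in both directions. These 3 are shown with the motif in capitals, together with that of Cox7a2l, the called gene with the lowest adjusted p, in which none of the 3 motifs was found.
Ndufa3 (lower with TGF-β1; YY1 motif), chr7:3617123-3617422, plus strand: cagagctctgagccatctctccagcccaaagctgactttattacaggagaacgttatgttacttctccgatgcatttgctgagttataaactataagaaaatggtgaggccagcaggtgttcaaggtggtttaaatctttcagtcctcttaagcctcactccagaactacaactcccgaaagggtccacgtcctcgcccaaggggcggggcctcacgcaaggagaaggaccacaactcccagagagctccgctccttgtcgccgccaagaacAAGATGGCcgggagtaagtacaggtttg
Ndufa9 (higher with TGF-β1; YY1 motif), chr6:126849095-126849394, minus strand: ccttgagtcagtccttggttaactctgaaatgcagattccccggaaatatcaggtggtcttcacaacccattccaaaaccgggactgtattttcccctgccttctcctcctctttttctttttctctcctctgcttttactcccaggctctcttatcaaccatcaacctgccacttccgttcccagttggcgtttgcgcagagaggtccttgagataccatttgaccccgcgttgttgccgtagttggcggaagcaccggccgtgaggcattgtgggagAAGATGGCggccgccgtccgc
Uqcrh (lower with TGF-β1; ETS motif, on the other strand), chr4:116075021-116075320, minus strand: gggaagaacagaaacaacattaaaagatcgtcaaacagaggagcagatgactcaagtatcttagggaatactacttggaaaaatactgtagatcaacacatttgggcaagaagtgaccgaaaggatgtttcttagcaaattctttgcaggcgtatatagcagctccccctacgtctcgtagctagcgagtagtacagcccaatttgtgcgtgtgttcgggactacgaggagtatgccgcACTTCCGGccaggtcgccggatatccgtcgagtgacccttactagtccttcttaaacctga
Cox7a2l (lower with TGF-β1; no motif), chr17:83514284-83514583, minus strand: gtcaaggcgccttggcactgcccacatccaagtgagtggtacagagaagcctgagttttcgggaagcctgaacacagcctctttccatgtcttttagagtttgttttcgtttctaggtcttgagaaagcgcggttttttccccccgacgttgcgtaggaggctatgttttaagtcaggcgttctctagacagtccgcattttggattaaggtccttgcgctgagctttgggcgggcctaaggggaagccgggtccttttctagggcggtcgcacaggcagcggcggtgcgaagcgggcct
The YY1 motif lay just inside the transcribed part in both Ndufa3, which fell, and Ndufa9, which rose. The NRF1 core stood in the promoters of Atp5g2, Atp5k, Atp5l, Cox6a1, Ndufa8, Ndufa11, Uqcr11 and Uqcrc1, none of which was called in the main fit. Of the 61 matched promoters, 48 belonged to genes that were not called or not tested, so nothing is read from this count. Atp5g2, Cox6a1, Ndufa8, Ndufa11 and Uqcrc1 were called in some refits. A match is a description of these letters and not evidence that the factor was bound.

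Complex I, the NADH dehydrogenase, had 34 tested genes, of which 3 rose and 3 fell (17.6%), with a median change of -0.07. Ndufs1, the iron-sulfur core subunit of the NADH-oxidising arm, had 22.6, 20.7 and 20.2 FPKM in Control replicates 1 to 3 and 29.7, 32.7 and 27.1 FPKM in TGF-β1 replicates 1 to 3. Every treated library lay above every Control library. The means were 21.2 ± 1.27 and 29.9 ± 2.81 FPKM (SD, n = 3), a log2 change of 0.47 ± 0.096 (limma adjusted p = 0.00786), where ± after a log2 change stands for its standard error. The call held in 17 of 18 refits, the exception being replicates 1 and 3 alone (0.39, adjusted p = 0.0539). The gene lies at chr1:63190170-63223396 (mm9, minus strand) and overlaps the opposite-strand gene Gm11602. Ndufa1, a small accessory subunit of the membrane arm, had 104, 117 and 101 FPKM in Control and 133, 132 and 139 FPKM with TGF-β1. The groups were apart, with a log2 change of 0.33 ± 0.084 (limma adjusted p = 0.0196). Ndufa1 lost its call without Control replicate 1, TGF-β1 replicate 1 or TGF-β1 replicate 3 (adjusted p = 0.0588, 0.0646 and 0.0715). Scaled to the protein-coding sum, its change was 0.13 and was not called (adjusted p = 0.264). The third gene to rise was Ndufa9, an accessory subunit at the junction of the arms, with 0.32 ± 0.090 (limma adjusted p = 0.0283). It is named because it completes the count, and it was called in 9 of 18 refits with adjusted p-values from 0.0138 to 0.329, losing its call without Control replicate 1 or 3 or TGF-β1 replicate 1 or 2 (0.0619 to 0.0779).

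The largest called decrease in complex I was that of Ndufb5, an accessory subunit of the membrane arm. It had 134, 139 and 127 FPKM in Control and 87.1, 102 and 82.9 FPKM with TGF-β1. All treated libraries were below all Control libraries, at 0.678 times the Control mean, with a log2 change of -0.56 ± 0.099 (limma adjusted p = 0.00468) that was called in all 18 refits. Ndufb5 lies at chr3:32635912-32650488 (mm9, plus strand) and overlaps the opposite-strand gene Mrpl47, and whether reads were assigned by strand is not stated. Ndufa5, an accessory subunit of the matrix arm, had 99.0, 105 and 87.5 FPKM in Control and 70.3, 71.8 and 69.8 FPKM with TGF-β1. The treated libraries lay within a narrow range below the Control range, with a log2 change of -0.45 ± 0.088 (limma adjusted p = 0.00708) called in all 18 refits. The last gene to fall was Ndufa3, another membrane arm subunit, named to complete the count, with -0.39 ± 0.11 (limma adjusted p = 0.0248). Its transcript is only 349 nt long. With the trend in length and GC content removed the change of Ndufa3 was -0.20 (adjusted p = 0.212, within a range of 0.00701 to 0.259 over its alternatives), and the call was also lost without Control replicate 1 or TGF-β1 replicate 1 or 3 (0.0536 to 0.0884). The count of 6 called genes in complex I fell to 3 without Control replicate 1 or TGF-β1 replicate 1.

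Ndufv1, the subunit that binds the flavin and takes electrons from NADH, had 93.9, 94.9 and 47.6 FPKM in Control and 73.1, 52.9 and 73.3 FPKM with TGF-β1. Control replicate 3 was the lowest of all 6 libraries, and the 95% interval of its log2 change ran from -0.90 to 0.52. It was not called (limma adjusted p = 0.618). The genes of complex I that were not called lay between -0.52 (Ndufb7) and 0.45 (Ndufb6). Summed over its genes, complex I had 5851 ± 373 FPKM in Control and 5492 ± 425 FPKM with TGF-β1 (SD, n = 3), a ratio of 0.939.

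Complex II, succinate dehydrogenase, is the one complex with no subunit in mitochondrial DNA, and its catalytic subunits moved in opposite directions. Sdha, the flavoprotein that oxidises succinate, had 67.4, 67.2 and 63.8 FPKM in Control and 52.6, 55.0 and 51.3 FPKM with TGF-β1. Sdhb, the iron-sulfur subunit bound to it, had 52.7, 51.3 and 42.3 FPKM in Control and 82.8, 61.0 and 68.0 FPKM with TGF-β1. In both genes the groups were apart, so that Sdha was the more abundant of the pair per length in every Control library and the less abundant in every TGF-β1 library. The log2 change was -0.31 ± 0.070 for Sdha (limma adjusted p = 0.0114). That of Sdhb was 0.52 ± 0.14 (limma adjusted p = 0.0248), the largest increase among the called subunit genes. Sdhd, a membrane anchor, had 39.9, 36.7 and 30.4 FPKM in Control and 46.9, 47.3 and 46.7 FPKM with TGF-β1. The treated libraries were nearly equal and above all Control libraries, with a log2 change of 0.40 ± 0.11 (limma adjusted p = 0.0259). Sdhc, the other anchor, was not called, with an interval of -0.31 to 0.16.

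The calls in complex II differed in how far they depended on single libraries. Sdha was called in 17 of 18 refits, the exception being without TGF-β1 replicate 1 (-0.31, adjusted p = 0.0524). Sdhb was called in 13 of 18, and its adjusted p passed 0.05, reaching at most 0.0680, without Control replicate 2 or 3 or TGF-β1 replicate 1 or 3. Sdhd was called in 12 of 18, with 0.0549 to 0.0757 without Control replicate 2 or any 1 treated library. Scaled to the protein-coding sum, the adjusted p-values were 0.0772 for Sdhb and 0.128 for Sdhd. The count of 3 called genes of 4 fell to 0 without TGF-β1 replicate 1, and to 1 without Control replicate 2 or without TGF-β1 replicate 3. Sdha lies at chr13:74459702-74487728 (mm9, minus strand) and overlaps the opposite-strand gene Gm16125. The summed level of complex II was 288 ± 26.3 FPKM in Control and 301 ± 9.24 FPKM with TGF-β1 (SD, n = 3), the lowest of the 5 complexes.

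**Figure D2:**
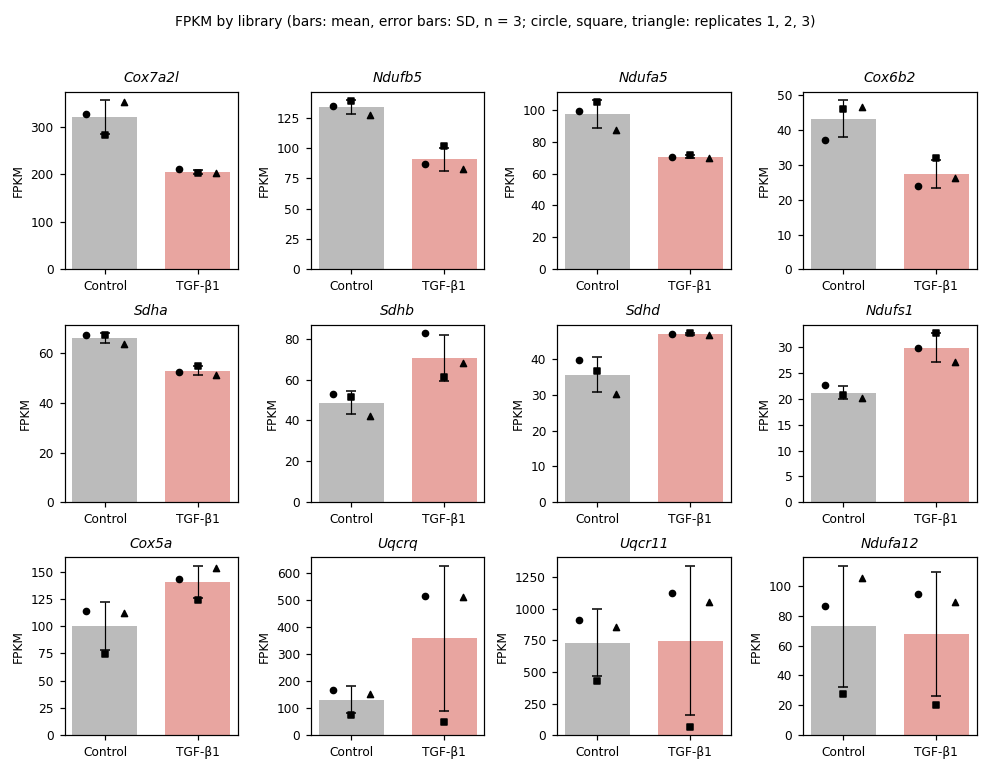
FPKM (vertical axis, linear from 0) of 12 subunit genes in Control (grey) and TGF-β1 (red), with bars for the mean, error bars for the SD of 3 libraries and a circle, square and triangle for replicates 1, 2 and 3. Cox7a2l, Ndufb5, Ndufa5, Cox6b2 and Sdha are lower in every treated library and Sdhb, Sdhd, Ndufs1 and Cox5a higher, whereas in Uqcrq, Uqcr11 and Ndufa12 the squares of replicate 2 lie far below the other libraries of their group.

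Complex III had 8 tested genes, of which 1 rose and 2 fell. Uqcrfs1, the Rieske iron-sulfur protein that takes electrons from reduced coenzyme Q, had 32.7, 26.8 and 30.4 FPKM in Control and 40.3, 36.0 and 36.3 FPKM with TGF-β1. All treated libraries were above all Control libraries, with a log2 change of 0.32 ± 0.099 (limma adjusted p = 0.0387). Uqcrh, the hinge protein beside cytochrome c1, had 309, 270 and 340 FPKM in Control and 238, 228 and 225 FPKM with TGF-β1. It was lower in every treated library, with a log2 change of -0.40 ± 0.10 (limma adjusted p = 0.0204). Uqcrb, a small subunit near the coenzyme Q site, had 463, 335 and 486 FPKM in Control and 304, 320 and 290 FPKM with TGF-β1. Control replicate 2 came close to the treated range without entering it, and the log2 change was -0.47 ± 0.15 (limma adjusted p = 0.0455).

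These calls were near the threshold. The count of 3 fell to 0 without TGF-β1 replicate 1 or 3 and to 1 without Control replicate 1 or 3. Uqcrfs1 was called in 8 of 18 refits, with adjusted p-values of 0.0596 to 0.130 without Control replicate 2 or 3 or any 1 treated library. Scaled to the protein-coding sum, its adjusted p was 0.285. Uqcrb was called in 11 of 18, with 0.0741 to 0.127 without Control replicate 1 or 3 or any 1 treated library. Uqcrh was called in 15 of 18, with 0.0570 to 0.0684 without Control replicate 1 or TGF-β1 replicate 1 or 3. Uqcrb and Uqcrh overlap the opposite-strand genes Gm10767 and Gm12854, and the row of Uqcrh names a transcript annotated as non-coding. Uqcrc1, a core protein, had 90.1, 72.0 and 72.6 FPKM in Control and 97.7, 72.1 and 98.6 FPKM with TGF-β1. The ranges overlapped, with TGF-β1 replicates 1 and 3 above every Control library and replicate 2 within the Control range, and it was not called (0.18 ± 0.16, limma adjusted p = 0.368). With the trend in length and GC content removed the change of Uqcrc1 was 0.33 and was called (limma adjusted p = 0.0424), within a range of 0.0303 to 0.968 over its alternatives.

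Uqcrq and Uqcr11, small accessory subunits of complex III, were singled out after their values had been seen, because replicate 2 decided them. Uqcrq had 165, 72.7 and 153 FPKM in Control and 514, 48.4 and 512 FPKM with TGF-β1. Replicates 1 and 3 were 3.22 times as high with TGF-β1 as in Control, while TGF-β1 replicate 2 was the lowest library of all, at 0.666 times its Control counterpart. Over all 6 libraries Uqcrq was not called (0.93 ± 0.95, limma adjusted p = 0.452). Without TGF-β1 replicate 2 its log2 change was 2.05 (limma adjusted p = 0.00919) and within replicates 1 and 3 it was 1.68 (limma adjusted p = 0.00155), within a range of 0.00155 to 0.800 over its alternatives. Uqcr11 had 914, 427 and 853 FPKM in Control and 1122, 64.7 and 1054 FPKM with TGF-β1. It was lowest in both replicate 2 libraries, and its log2 change turned from -0.70 over all libraries to 0.65 without TGF-β1 replicate 2, with neither value called (limma adjusted p = 0.632 and 0.189). Summed over complex III, the TGF-β1 to Control ratio was 1.05 in all libraries and 1.16 in replicates 1 and 3. The means of the sum were 2090 FPKM in Control and 2205 FPKM with TGF-β1. Those of Uqcrq alone were 130 and 358 FPKM, a larger rise than that of the sum. In replicates 1 and 3, Uqcrq and Uqcr11 together also rose by more than the sum, so the remaining genes together were lower with TGF-β1.

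Complex IV, cytochrome c oxidase, had 12 tested genes, with none called higher and 2 called lower. Cox7a2l, which links complexes III and IV into supercomplexes and is also known as SCAF1, had 327, 283 and 353 FPKM in Control and 211, 202 and 202 FPKM with TGF-β1. The treated libraries were nearly equal and all below the lowest Control library, at 0.639 times the Control mean. The log2 change of -0.64 ± 0.10 (limma adjusted p = 0.00310) had the lowest adjusted p of all subunit genes and was called in all 18 refits. The gene lies at chr17:83901259-83913673 (mm9, minus strand) with 2 annotated transcripts. Cox6b2, the isoform of the cytochrome c-facing subunit best known from testis, had 37.2, 46.1 and 46.6 FPKM in Control and 24.0, 32.0 and 26.1 FPKM with TGF-β1. Every treated library was below every Control library, with a log2 change of -0.65 ± 0.14 (limma adjusted p = 0.0103) called in all 18 refits. Cox6b2 lies at chr7:4703396-4704696 (mm9, minus strand) and has a single annotated transcript of 551 nt.

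Cox5a, a nuclear subunit that joins the mitochondrially encoded core early in assembly, had 114, 74.4 and 112 FPKM in Control and 143, 124 and 154 FPKM with TGF-β1. The groups did not overlap, but Control replicate 2 was far below the other Control libraries, and Cox5a was not called (0.51 ± 0.18, limma adjusted p = 0.0631). It was called with a term for replicate number 2 (adjusted p = 0.00964) and within replicates 1 and 3 (0.0322), with a range of 0.00884 to 0.189 over its alternatives. It overlaps the opposite-strand gene Gm17596. The other 9 tested genes of complex IV lay between -0.51 (Cox7a1) and 0.41 (Cox6a1) and were not called. Without TGF-β1 replicate 2 the change of Cox6a1 was 0.79 and was called (limma adjusted p = 0.0399), and within replicates 1 and 3 alone it was 0.59 (0.0342), with a range of 0.00461 to 0.698 over its alternatives. The summed level of complex IV was 3771 ± 432 FPKM in Control and 3862 ± 466 FPKM with TGF-β1 (SD, n = 3). Cox6a1, not called over all 6 libraries, had means of 701 and 968 FPKM, a larger rise than that of the sum.

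Several complex IV subunits come in pairs of isoforms. Cox6b1, the general partner of Cox6b2, had 508, 514 and 514 FPKM in Control and 517, 541 and 473 FPKM with TGF-β1. The ranges overlapped and its log2 change of -0.01 had a 95% interval of -0.22 to 0.20. As a share of the FPKM of the pair, Cox6b2 made up 6.83%, 8.24% and 8.32% in the Control libraries and 4.44%, 5.58% and 5.24% in the treated libraries, so the share was lower in every treated library. The other pairs were dominated by the general isoform. Cox7a1, known from heart and skeletal muscle, made up 0.408% to 2.77% of its pair with Cox7a2 and rested on 1 to 7 fragments a library. Cox6a2, also of muscle, was at 0, 0 and 0.202 FPKM in Control and 0.595, 0.650 and 1.0 FPKM with TGF-β1. Every treated library of Cox6a2 was above every Control library, and without the filter on low values it was called higher (0.71, limma adjusted p = 0.00722). Its values corresponded to at most 5 fragments in a library, under the filter, and beside them Cox6a1 reached 521 FPKM or more in every library. Cox4i2, a hypoxia-related isoform of lung, was at 0.169, 0.170 and 0 FPKM in Control and 0, 0.188 and 0 FPKM with TGF-β1, both groups at or near 0. Ndufa4l2, the hypoxia-induced relative of Ndufa4, was listed at 0.118, 0.119 and 0 FPKM in Control and 0, 0 and 0.242 FPKM with TGF-β1. These are values of 1 or 2 fragments, while Ndufa4 had 548, 542 and 460 FPKM in Control and 605, 643 and 562 FPKM with TGF-β1, apart between the groups but not called (0.23 ± 0.11, limma adjusted p = 0.134). Cox8a was not called either, with an interval of -0.33 to 0.43.

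Complex V, the ATP synthase, had 17 tested genes, with 2 called higher and 1 lower. Atp5b, the catalytic beta subunit, was the most abundant subunit gene per length, with 2209, 2387 and 1889 FPKM in Control and 2487, 2833 and 2466 FPKM with TGF-β1. The groups were apart, but the change of 0.27 ± 0.13 was not called (limma adjusted p = 0.146). Atp5a1, the alpha subunit beside it, had 378, 373 and 268 FPKM in Control and 344, 334 and 312 FPKM with TGF-β1. Its ranges overlapped and the log2 change had an interval of -0.39 to 0.34. Atp5g1, one of the genes for the subunit of the rotating c-ring, had 370, 387 and 280 FPKM in Control and 470, 487 and 469 FPKM with TGF-β1. It was higher in every treated library, with a log2 change of 0.47 ± 0.14 (limma adjusted p = 0.0305). The genes Atp5g2 and Atp5g3 encode the same mature c subunit, and neither was called, at -0.23 and 0.57. Atp5f1, a subunit of the peripheral stalk, had 106, 100 and 109 FPKM in Control and 122, 130 and 127 FPKM with TGF-β1. The groups were apart with a small log2 change of 0.26 ± 0.073 (limma adjusted p = 0.0261).

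Without any 1 treated library the count of 3 called genes in complex V fell to 1. Atp5g1 was called in 10 and Atp5f1 in 7 of 18 refits. Atp5g1 lost its call without any 1 treated library (adjusted p = 0.0728 to 0.0824), and Atp5f1 without Control replicate 1 or 2 or any 1 treated library (0.0587 to 0.0839). Scaled to the protein-coding sum, the adjusted p-values were 0.119 for Atp5g1 and 0.514 for Atp5f1. Atp5f1 overlaps the opposite-strand gene Wdr77. The 1 gene that fell, Atp5sl, is now known as Dmac2, an assembly factor of the distal membrane arm of complex I, and so does not count for the ATP synthase itself. It had 16.4, 17.0 and 19.7 FPKM in Control and 11.5, 10.3 and 13.4 FPKM with TGF-β1. Every treated library was lower, with a log2 change of -0.56 ± 0.12 (limma adjusted p = 0.0101) called in 17 of 18 refits. The summed level of complex V was 6040 ± 590 FPKM in Control and 6650 ± 160 FPKM with TGF-β1 (SD, n = 3), a ratio of 1.10. Much of the difference was Atp5b, not called, whose mean was 2162 FPKM in Control and 2595 FPKM with TGF-β1. The sum also holds Atp5s, Atp5sl and Atp5l2. Of the 17 tested genes, 10 had a positive change and 7 a negative one. Over all 5 complexes the ratio was 1.03, with sums of 18040 ± 1346 FPKM in Control and 18509 ± 1634 FPKM with TGF-β1 (SD, n = 3). Atp5b alone rose by nearly as much as this sum.

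The 6 libraries did not treat all subunit genes alike. TGF-β1 replicate 2 was at least 1.5 times below both other TGF-β1 libraries in 13 of the 75 genes (17.3%), against 8.28% of all rows. These were Atp5e, Atp5g3, Cox6a1, Cox7a1, Ndufa12, Ndufa2, Ndufa7, Ndufb10, Ndufb11, Ndufb7, Ndufs7, Uqcr11 and Uqcrq. Their transcripts had a median GC content of 54.6%, against 50.1% for the other subunit genes. Control replicate 3 was at least 1.5 times below both other Control libraries in 8 genes (10.7%, against 4.66% of all rows), namely Atp5e, Atp5j2, Atp5l, Atp5l2, Ndufa7, Ndufb6, Ndufs3 and Ndufv1, and it was the lowest of the 6 libraries in 30 of the 75, against 20.2% of all rows. Both replicate 2 libraries were at least 2-fold below each of the other 4 libraries in Ndufa12 and Uqcrq, against 1.09% of all rows. Ndufa12, an accessory subunit of complex I named after its values had been seen, had 86.2, 27.5 and 105 FPKM in Control and 94.7, 19.9 and 89.1 FPKM with TGF-β1. The replicate 2 libraries of both groups were low together, and the interval of its log2 change ran from -1.98 to 1.62.

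**Figure D3:**
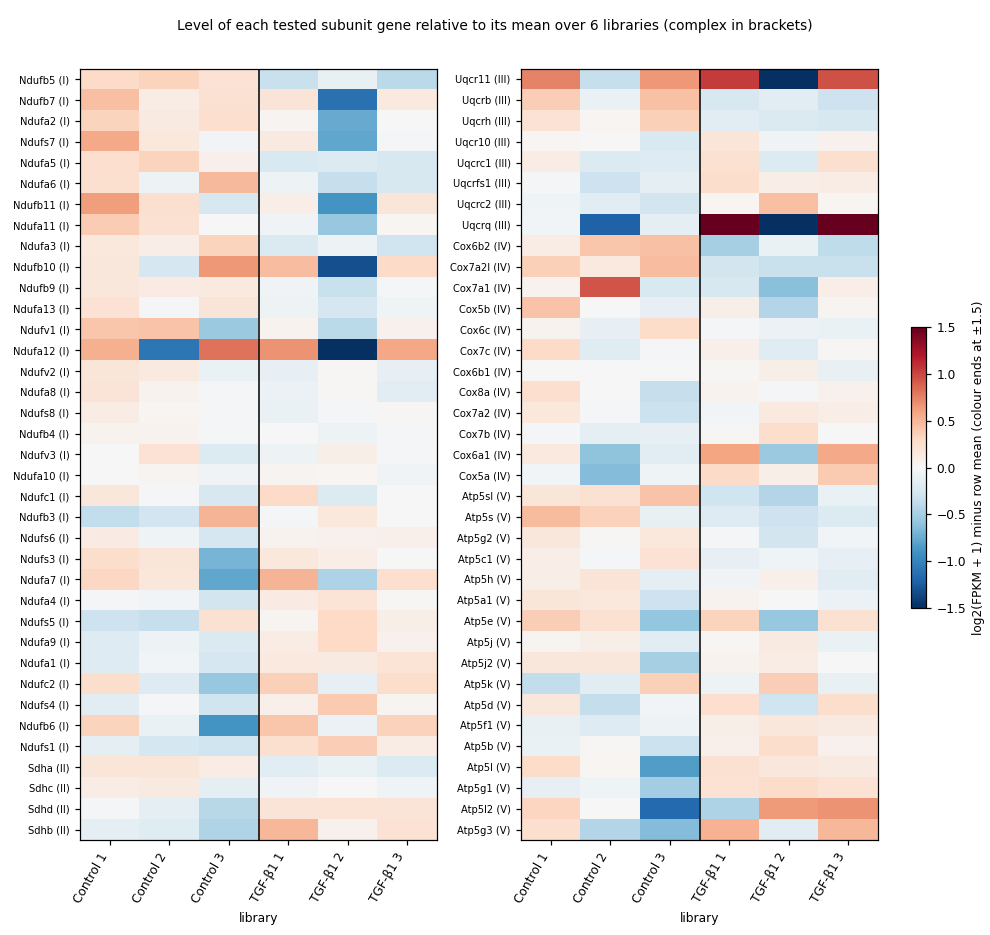
Level of 74 of the 75 tested subunit genes (rows, with the complex in brackets) in each of the 6 libraries (columns), as log2(FPKM + 1) minus the mean of the row, with the colour scale ending at ±1.5. Dark blue cells stand out in TGF-β1 replicate 2 for Uqcr11, Uqcrq, Ndufa12, Ndufb10 and Ndufb7, and in Control replicate 2 for Uqcrq and Ndufa12. They also stand out in Control replicate 3 for Atp5l2, Atp5l, Ndufb6 and Ndufa7, while most other rows stay near 0.

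GC content moved with the deviations of the treated libraries. Across 74 subunit genes, the deviation of TGF-β1 replicate 2 from its group mean fell with GC content (Spearman's rho = -0.48), and those of TGF-β1 replicates 1 and 3 rose with it (0.38 and 0.50). Over 10847 protein-coding rows the values were -0.39, 0.27 and 0.32. These correlations are across genes of 1 library, which share its depth and are not independent replicates, and the 3 deviations of a group sum to 0. The fitted change with TGF-β1 also fell with GC content, at rho = -0.27 across the 74 subunit genes and -0.21 across the 10847 rows. Its standard error rose with GC content (0.32 and 0.18). With a term for replicate number 2, 10 subunit genes were called higher and 14 lower, against 25.1% and 24.9% of all rows. Within replicates 1 and 3 alone 5 were called higher and 9 lower, against 18.8% and 17.7%. The genes gained with the term were Cox5a, Ndufa2, Ndufa6, Ndufa13, Ndufb9, Ndufs4 and Atp5g2. The labels give replicate 2 no batch or date, and the source of its difference was not tested.

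**Figure D4:**
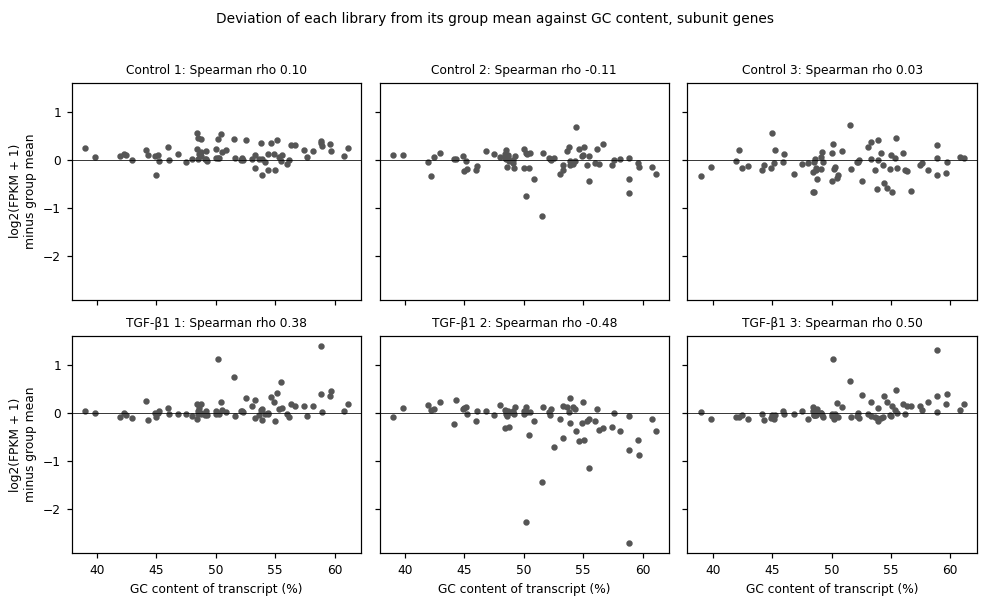
Deviation of each library from its group mean (vertical axis, log2(FPKM + 1)) against the GC content of the transcript (horizontal axis, %) for subunit genes, with 1 point per gene and 1 panel per library. The cloud is flat in the Control panels, falls in TGF-β1 replicate 2 (rho = -0.48) and rises in TGF-β1 replicates 1 (0.38) and 3 (0.50).

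Subunit transcripts were short. The tested genes had transcripts of 349 to 4715 nt with a median of 763 nt, against a median of 2663 nt for all protein-coding rows tested, and 24 of the 75 were under 600 nt. A short transcript holds few start positions for a fragment, and its FPKM depends strongly on the length correction. Among the 51 genes of at least 600 nt, 7 were called higher and 5 lower, with a median standard error of 0.13. Among the 24 shorter genes, 1 was called higher (Ndufa1) and 4 lower (Cox6b2, Ndufa3, Uqcrb and Uqcrh), with a median standard error of 0.17. The part of length in these counts was not tested. Only 24 of the 75 have a single annotated transcript, 8 rows name a transcript that is not protein coding, and whether a row holds its gene or only that transcript is not stated. Many subunit genes also have processed pseudogenes, and how reads shared between copies were assigned is not stated.

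Other genes of the pathway were taken from 11 lists. Of 144 genes around oxidative phosphorylation, 129 were found and 123 tested, of which 36 rose and 15 fell, with a median change of 0.15. Atp5sl (now Dmac2), given with complex V, is not among the 129. Without TGF-β1 replicate 1 the 51 called genes became 32. Lists are described by their counts beside the 48.1% of all rows called, and nothing is read from them as sets. Of the 13 subunits encoded by mitochondrial DNA, the table held mt-Cytb, the cytochrome b of complex III. It had 18705, 16623 and 21963 FPKM in Control and 11412, 12414 and 11271 FPKM with TGF-β1. All treated libraries were lower, with a log2 change of -0.70 ± 0.18 (limma adjusted p = 0.0187). The call was lost without TGF-β1 replicate 1 (adjusted p = 0.0805) or 3 (0.0660) and without the filter on low values (0.318), and copies of mitochondrial DNA in the nucleus can share its reads.

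Of 8 subunits and regulators outside the name pattern, 4 rose and 1 fell. Cycs, the cytochrome c that carries electrons from complex III to complex IV, had 13.3, 13.5 and 10.5 FPKM in Control and 32.7, 39.5 and 28.9 FPKM with TGF-β1. The treated libraries were all more than 2-fold above the Control libraries, with a log2 change of 1.36 ± 0.15 (limma adjusted p = 0.000645) called in all 18 refits. Over all 6 libraries no tested subunit gene of the name pattern had a fitted change of this size, and without TGF-β1 replicate 2 or within replicates 1 and 3 Uqcrq had a larger one that was called. Atpif1, the inhibitor of the ATP synthase, had 1167, 1188 and 1496 FPKM in Control and 856, 956 and 817 FPKM with TGF-β1. It was lower in every treated library, with a log2 change of -0.54 ± 0.13 (limma adjusted p = 0.0170). Atpif1 lost its call without TGF-β1 replicate 1 (0.0638) or 3 (0.0620). Cyc1, the cytochrome c1 of complex III, was not called (0.23 ± 0.11, limma adjusted p = 0.128).

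Assembly factors were called in both directions. For complex I, 3 of 16 rose and 1 fell, led by Ndufaf4 at 0.69 ± 0.099 (limma adjusted p = 0.00205) and by Ndufaf3, its partner in assembly, at -0.45 ± 0.11 (limma adjusted p = 0.0160). These 16 leave out Atp5sl, the complex I assembly factor given with complex V, whose called decrease of -0.56 was larger than that of Ndufaf3. Ndufaf3 lost its call without Control replicate 1 (0.0508) or TGF-β1 replicate 3 (0.0561) and within replicates 1 and 3 alone (0.0833). With the trend in length and GC content removed its change was -0.28 and was not called (adjusted p = 0.0627). For complexes II and III, 3 of 10 rose and 1 fell, led by Lyrm7, a chaperone of the Rieske protein Uqcrfs1, at 1.08 ± 0.24 (limma adjusted p = 0.0119), and by AI462493 (now Uqcc3) at -0.75 ± 0.10 (limma adjusted p = 0.00155). For complex IV, 3 of 20 rose and 3 fell, with 6330578E17Rik (now Coa5) at 0.41 ± 0.085 (limma adjusted p = 0.00917) and 2900053A13Rik (now Pet100) at -0.94 ± 0.23 (limma adjusted p = 0.0171). The latter lost its call without TGF-β1 replicate 3 (0.0511). For complex V, 1 of 3 rose, which was Tmem70, an assembly factor of the ATP synthase. Tmem70 had 27.7, 24.3 and 18.5 FPKM in Control and 61.8, 61.1 and 64.3 FPKM with TGF-β1. The treated libraries were nearly equal and far above Control, with a log2 change of 1.39 ± 0.15 (limma adjusted p = 0.000582), called in all 18 refits.

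**Figure D5:**
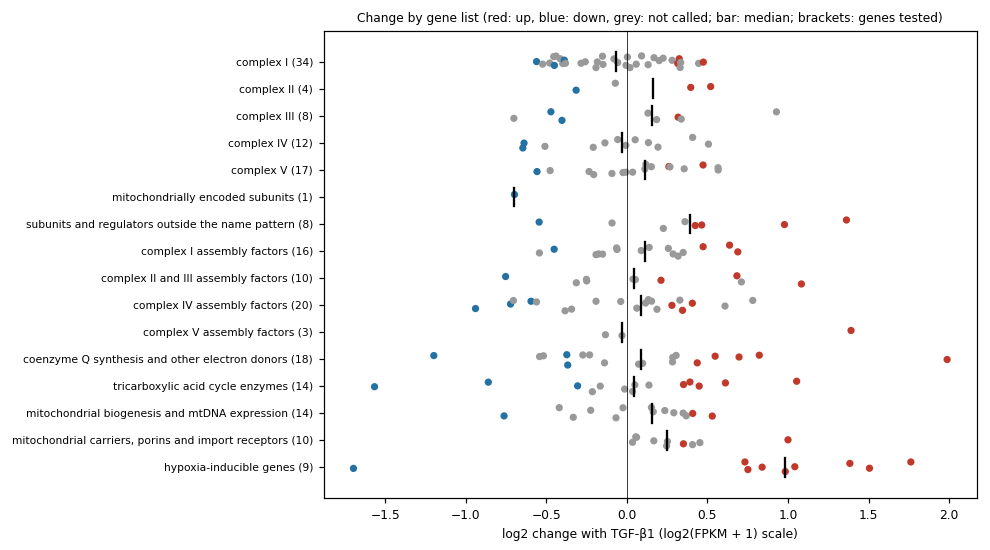
Log2 change with TGF-β1 (horizontal axis, log2(FPKM + 1) scale) of the subunit genes of complexes I to V and of 11 lists of other genes, with 1 point per gene, red for called higher, blue for called lower, grey for not called and a black bar for the median of each list. The points of the 5 complexes lie within -0.70 and 0.93, whereas genes of other lists reach 1.99 (Coq10b) and -1.70 (Ndrg1).

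Larger changes were found among electron donors and in the citric acid cycle. Among 18 genes of coenzyme Q synthesis and other electron donors 5 rose and 3 fell. Coq10b, which binds coenzyme Q, had 14.2, 12.2 and 14.9 FPKM in Control and 57.4, 56.2 and 59.1 FPKM with TGF-β1. Every treated library was well above Control, with a log2 change of 1.99 ± 0.092 (limma adjusted p = 2.93e-05). Coq6, a monooxygenase of coenzyme Q synthesis, went the other way at -1.20 ± 0.098 (limma adjusted p = 0.000222). Of 14 enzymes of the tricarboxylic acid cycle 5 rose and 3 fell, and isocitrate dehydrogenases moved apart. Idh3a, a subunit of the NAD-dependent enzyme, rose by 1.05 ± 0.073 (limma adjusted p = 0.000123). Idh2, the NADP-dependent enzyme of mitochondria, had 206, 188 and 149 FPKM in Control and 58.4, 60.7 and 60.5 FPKM with TGF-β1. All treated libraries were below all Control libraries, with a log2 change of -1.57 ± 0.13 (limma adjusted p = 0.000219).

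Of 17 regulators of mitochondrial biogenesis and mtDNA expression, 14 were tested, 2 rose and 1 fell. Pprc1, a coactivator related to PGC-1α, was at 0.53 ± 0.099 (limma adjusted p = 0.00586), and Polrmt, the mitochondrial RNA polymerase, at -0.76 ± 0.20 (limma adjusted p = 0.0217). Polrmt lost its call without Control replicate 1 or 2 or TGF-β1 replicate 1 or 3 (0.0672 to 0.0712). Ppargc1a, which encodes PGC-1α, was under the filter in both groups, at 0.732 ± 0.240 FPKM in Control and 0.0639 ± 0.0417 FPKM with TGF-β1 (SD, n = 3). Among 10 carriers, porins and import receptors 2 rose, led by the ADP/ATP carrier Slc25a5 at 1.0 ± 0.10 (limma adjusted p = 0.000496), and none fell. The hypoxia-inducible list had 9 tested genes, of which 8 rose, led by Vegfa at 1.76 ± 0.083 (limma adjusted p = 3.10e-05), and 1 fell, Ndrg1, at -1.70 ± 0.087 (limma adjusted p = 4.19e-05). Cox4i2 and Ndufa4l2, the subunit isoforms known from hypoxia, were at or near 0 in both groups.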

How the data were processed

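RNA-seq of 3 Control and 3 TGF-β1 libraries was analysed. The authors filtered reads, mapped them to the mouse genome (mm9, TopHat2 2.0.11 per the labels) and estimated expression with Cufflinks, and the deposited table gives FPKM in 1 column per library. The study's own test was a negative binomial count model. The table holds no counts, so limma 3.58.1 in R 4.3.3 (lmFit, eBayes with a mean-variance trend, two-sided, Benjamini-Hochberg over 11898 rows) was run on log2(FPKM + 1) for rows with a mean of at least 1 FPKM. An adjusted p under 0.05 was called, and log2 changes understate those of low genes. The test was checked on simulated data.

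Depth was estimated from the step of low FPKM values (at least 99.5% within 0.08 of a whole fragment). Coordinates, length and GC content came from the mm9 annotation (GENCODE M1), to which 19699 rows matched by transcript. Promoters came from RefSeq. Other steps used Python 3.11.15 with matplotlib 3.10.9, scipy 1.17.1, pandas 2.3.3 and numpy 2.4.6.

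The subunit genes and the lists were chosen with earlier results of these data known. Per library, the text gives up to 2 called genes in each direction per complex, core subunits and isoform pairs chosen by their role, up to 2 genes per list, and Ctgf, Col1a1 and Acta2. Some genes of the lists are given by their change alone. Ndufa9, Ndufa3, Uqcrq, Uqcr11, Ndufa12, Sdhc, Atp5g2, Atp5g3, Cyc1 and Ppargc1a were added after their values had been seen. The 18 refits changed the pseudocount, filter, scaling, gene classes, trend in length and GC content, variance model, replicate terms or libraries. 1 subunit gene is not reported here by name.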

Additional observations from a re-analysis of the deposited data

How the results depend on the processing

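No named gene changed direction while called, and of 950 refitted changes of 53 named genes 846 stayed on the same side of the threshold, 91 lost a call and 13 gained one. With 75th percentile scaling 4 subunit genes were called higher and 14 lower, with a median of -0.068. All rows shifted alike in that scaling, with a median of -0.073, 2573 rows called higher and 3132 lower. Scaled to the protein-coding sum, 1 was higher and 21 lower, against 16.9% and 33.2% of all rows. The median was then -0.20, beside -0.19 for all rows, and 13 were called in complex I and 1 in complex II. With a term for replicate 2, 14 were lower, against 24.9% of all rows, and 11 were called in complex I. In replicates 1 and 3 alone 5 were higher, and the median was 0.043, beside -0.010 for all rows. In that fit 4 were called in complex IV and 0 in complex V, while 18.8% of all rows were called higher and 17.7% lower. Among transcripts of at least 600 nt, 5 were lower, with 1 called in complex III and 1 in complex IV. At an adjusted p under 0.01, 3672 rows, 24 genes of the lists and 1 higher and 3 lower subunit genes remained past the threshold, with 3 in complex I, 0 in complex II, 0 in complex III, 1 in complex IV and 0 in complex V. The tighter threshold and the length limit test fewer genes or ask for more by construction, and for the other settings the cause was not tested.

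Leaving out 1 library at a time gave 1 to 7 genes higher and 5 to 11 lower, a median of -0.085 to 0.034, and 3 to 8 called genes in complex I, 0 to 3 in complex II, 0 to 2 in complex III, 2 to 3 in complex IV and 1 to 4 in complex V. The lists then had 32 to 52 called genes, and 4451 to 5422 of all rows were called. The lowest counts of higher and lower subunit genes came without TGF-β1 replicate 1.

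Same-numbered libraries of the groups deviated together with correlations of 0.092, 0.23 and 0.085 over all rows, so the numbers were not taken to pair the samples. Over the 75 subunit genes the correlations were 0.39, 0.60 and 0.16. With the replicate block 5391 rows were called, 9 subunit genes were higher and 8 lower. The block lost the calls of Uqcrb (0.0696), Ndufa3 (0.0600) and Atp5f1 (0.0648) and gained those of Cox5a (0.0220), Ndufs4 (0.0334) and Ndufa6 (0.0468), as limma adjusted p-values. With the block and the trend in length and GC content removed, 10 were higher and 11 lower, with 4 called in complex IV and 5 in complex V. Not every library correlated best with its own number.

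About 10 M fragments a library (M, mega) and 3 libraries a group limit what can be seen: 15 of the 75 intervals reached past a 2-fold change.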
